A study of Mus musculus with 25 samples.

Results

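The apolipoprotein genes described here are the 10 genes Apoa1, Apoa2, Apoa4, Apoa5, Apob, Apoc1, Apoc3, Apoe, Apoh and Apom, taken by their symbol from the annotation of the array, out of 18194 named genes. They were read by 17 of the 45101 probe sets, 4 of them for Apoa1, 2 each for Apoa4, Apob, Apoh and Apom, and 1 for each of the others. Apolipoproteins are the protein parts of the particles in which plasma carries cholesterol and triglyceride. Apob forms the backbone of the large triglyceride-rich particles, and Apoa1 and Apoa2 form that of high-density lipoprotein. The proteins Apoc1, Apoc3, Apoa4, Apoa5 and Apoe move between particles and set how fast these are hydrolysed and taken up. The liver makes most of them, the small intestine also makes Apoa1, Apoa4 and Apob, and macrophages make Apoe and its neighbours in the genome.

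The study profiled engineered mouse cells and the tissues they were meant to resemble on 25 arrays in 10 groups. Induced hepatocytes (iHep) were cell lines grown from C57BL/6J embryonic fibroblasts of day E13.5 after retroviral transfer of Foxa1 and Hnf4a, which every iHep group therefore carries; 3 independent lines were measured untreated. Further iHep cultures received lentivirus with Cdx2 shRNA or scramble shRNA, 2 days of puromycin and a week of culture (n = 4 each). Engrafted iHep (n = 2) were cells sorted by green fluorescence 12 days after transplantation into colon that had been damaged with DSS, an irritant given to injure the gut lining, in immunodeficient Rag2gammac-/- mice. Adult liver (n = 2) and fetal liver of day E14.5 (n = 2) came from C57BL/6J mice, and colon crypts (n = 2) were freed with EDTA from Rag2gammac-/- mice at 8 weeks. The labels of adult liver disagree, with liver at 8 weeks in one field and hepatocytes isolated by collagenase at 10 weeks in another. Induced macrophages (iMac, n = 2 per group) came from C10, a pre-B cell line, that had received Ebf1, Pou2af1 or scramble shRNA and puromycin for 2 days before conversion. The labels give the conversion itself, with 100 nM estradiol, IL-3 and CSF-1, for the scramble samples, and for the other 2 groups say only that the cells were converted. Apart from the independent iHep lines, the labels do not say whether replicates were separate cultures or animals, so their p-values speak of the variation among these arrays, which may be technical.

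Levels are log2 signals, so 1 unit is a doubling, and the 40th percentile of an array, used here as a floor for low signals, lay between 5.52 and 5.80. Hepatocyte markers averaged 13.84 and 13.87 in adult liver, where 9 of 9 Kupffer cell markers were also above the floor on both arrays (means 10.94 and 8.67). Fetal liver carried erythroid markers at 10.68 and 11.03 on average, against 6.14 and 6.00 in adult liver. The 3 iHep lines differed, with Alb, the gene of albumin, at 5.69, 9.90 and 11.59 and the fetal hepatoblast markers at 6.47, 9.29 and 11.22. Engrafted iHep carried the colon epithelium markers at 11.72 and 10.95, against 12.53 and 12.51 in colon, and Alb at only 6.26 and 6.24. The B cell markers were above the floor in every iMac array, and Pou2af1 read 11.34 and 11.26 in the arrays labelled Pou2af1 shRNA and 11.25 and 11.06 with scramble shRNA. Since the targeted gene was not lower, these arrays are named by their label throughout. Ebf1 read 7.41 and 7.21 with Ebf1 shRNA and 8.31 and 8.38 with scramble shRNA. In bulk RNA, fewer cells of a type and less RNA per cell cannot be told apart, which holds for every value below.

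Of the 10 genes, 4 lie next to each other on mouse chromosome 9 in the order Apoa1, Apoc3, Apoa4 and Apoa5, between Sik3 and Zpr1. Apoc1 and Apoe are neighbours on chromosome 7, in 1 run with Apoc2 and Apoc4. Apoa2 lies on chromosome 1, Apob on chromosome 12, Apoh on chromosome 11 and Apom on chromosome 17. At Apoa1 iHep read slightly above adult liver, and at its neighbours on chromosome 9 it lay far below. The 250 bases before the start site are therefore shown for Apoa1, Apoa4 and Apoa5, and for Apob, whose probe sets disagreed. They are RefSeq sequences of build GRCm38.p6, all on the plus strand, at chr9:46228380-46228629 for Apoa1, chr9:46240594-46240843 for Apoa4, chr9:46268358-46268607 for Apoa5 (the first of 2 listed starts) and chr12:7977427-7977676 for Apob. Capitals mark GGGTCA and the form AGGTCA, both half-sites of nuclear receptors such as Hnf4a, on either strand, and the TATA motif TATAAA on the coding strand.
Apoa1: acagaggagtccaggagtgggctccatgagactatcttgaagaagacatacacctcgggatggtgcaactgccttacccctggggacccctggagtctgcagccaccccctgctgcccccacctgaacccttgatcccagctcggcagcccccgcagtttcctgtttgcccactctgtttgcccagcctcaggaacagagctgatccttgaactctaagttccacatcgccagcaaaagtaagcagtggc
Apoa4: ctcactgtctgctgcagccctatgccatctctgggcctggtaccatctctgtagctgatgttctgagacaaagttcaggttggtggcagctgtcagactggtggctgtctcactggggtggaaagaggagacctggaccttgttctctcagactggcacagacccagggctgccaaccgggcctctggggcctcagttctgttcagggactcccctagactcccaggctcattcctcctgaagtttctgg
Apoa5: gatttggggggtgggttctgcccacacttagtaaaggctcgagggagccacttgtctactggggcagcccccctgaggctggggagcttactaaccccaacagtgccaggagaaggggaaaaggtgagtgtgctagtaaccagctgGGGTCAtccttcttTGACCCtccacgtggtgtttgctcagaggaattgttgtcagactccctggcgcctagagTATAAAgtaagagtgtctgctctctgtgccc
Apob: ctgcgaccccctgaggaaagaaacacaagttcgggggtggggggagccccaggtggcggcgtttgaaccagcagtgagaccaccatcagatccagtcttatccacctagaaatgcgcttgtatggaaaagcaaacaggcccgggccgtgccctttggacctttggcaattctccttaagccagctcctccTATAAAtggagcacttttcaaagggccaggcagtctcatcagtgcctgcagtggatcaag
The Apoa5 window held GGGTCA on the plus strand from 104 to 99 bases before the start and on the minus strand from 90 to 85, followed by TATAAA from 31 to 26. The Apob window held TATAAA from 60 to 55 bases before the start, overlapped on the minus strand by the Cdx-type motif TTTATNG, and neither half-site. Neither half-site, nor TATAAA, nor the Cdx-type motif, nor the Hnf1-type motif GTTAAT, nor the forkhead-type motif TNTTTAC was in the Apoa1 or Apoa4 window, with all but TATAAA sought on both strands. Only these exact strings were sought, with N for any base. Sites of other spelling would be missed, so a window without a match may still hold binding sites of these factors. Over 32851 promoter windows of the same length, 14.02% held AGGTCA, 11.65% GGGTCA, 7.59% TATAAA, 9.81% TTTATNG, 6.43% GTTAAT and 10.9% TNTTTAC. Promoter entries were matched for 8 of the 10 genes, and not for Apoc1 or Apoc3. Windows that are not shown held half-sites too, AGGTCA for Apoa2 and Apoh and GGGTCA for Apoe and Apom.

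Adult liver was where all 10 genes were measured at a high level, with each of them at 10 or above on both arrays. Fetal liver had 6 and 7 of the 10 at that level on its 2 arrays, iHep 1, 1 and 2, engrafted iHep 2 and 1, colon 1 on each array, and the 6 iMac arrays 0. With each gene in its brightest probe set, adult liver held first place among the 10 group means for 9 genes, each time beyond the spread of the next group, and Apoa1 was the exception. The second place belonged to fetal liver for Apoa2, Apoa5, Apoc1, Apoe, Apoh and Apom, to engrafted iHep for Apoa4 and Apob and to iHep with scramble shRNA for Apoc3. For Apoa4 and Apoa5 no 2 neighbours below adult liver in that order differed beyond their spread. Levels of different genes come from different probe sets and are not compared with each other.

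**Figure D1:**
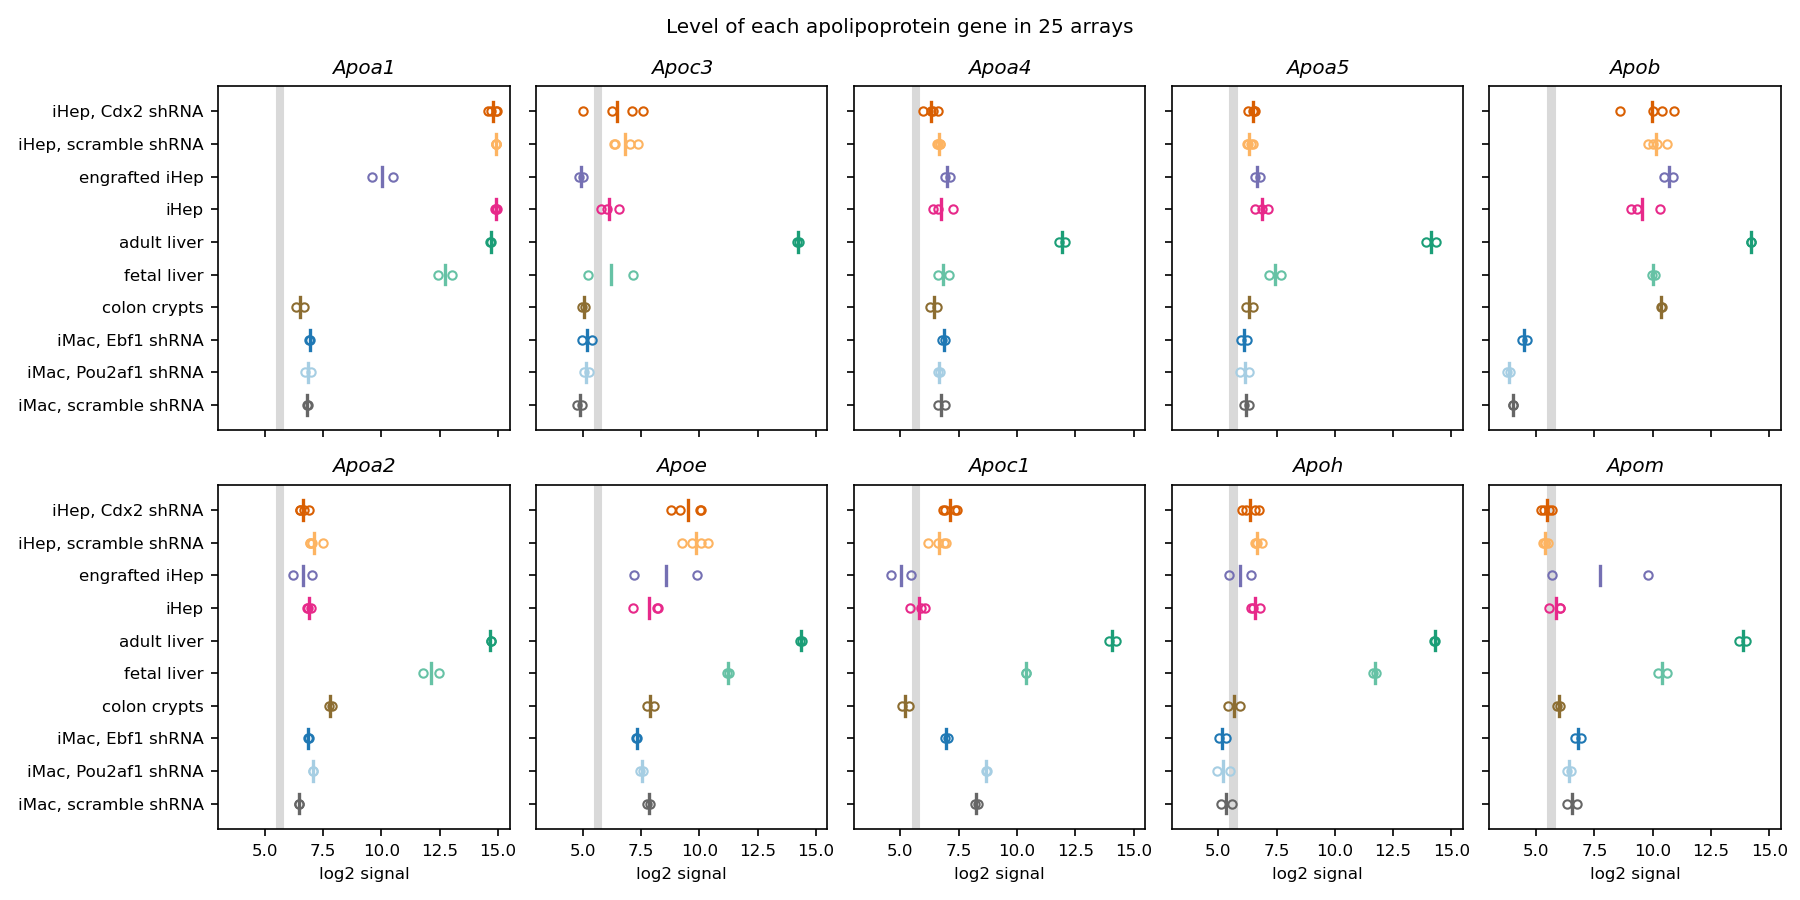
Level (log2 signal, x axis) of each of the 10 genes in its brightest probe set, by group (y axis); circles are arrays, bars are group means and the grey band spans the 40th percentiles of the 25 arrays. Adult liver is at the right of every panel except that of Apoa1, where the 3 cultured iHep groups reach a similar level.

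Apoa1, whose product is the chief protein of high-density lipoprotein, was the gene that iHep carried near the level of adult liver. It read 14.97, 14.90 and 14.89 in iHep, 14.71 and 14.65 in adult liver, and 13.02 and 12.44 in fetal liver. All 3 iHep lines were above both adult and fetal liver arrays, including the line in which Alb was at 5.69. The log2 fold change of iHep over adult liver was 0.24 ± 0.28 (SE), which did not pass limma's test across all genes (adjusted p = 0.501, threshold 0.05). That SE rests on a spread shared with the other groups of the model, among them engrafted iHep and fetal liver (SD 0.62 and 0.41). Within iHep and adult liver the SDs were 0.04 and 0.05, so the missing call does not show equal levels. Over fetal liver the log2 fold change was 2.19 ± 0.28, which passed (adjusted p = 0.000281). The Apoa1 probe set was the brightest of all 45101 on 3 of 3 untreated iHep arrays and 4 of 4 iHep arrays with scramble shRNA, and ranked between 7 and 10 in adult liver. Signals at the top of an array have no room above them, and whether these were saturated was not tested. The other 3 probe sets of Apoa1 gave the same calls in the comparisons with adult and fetal liver.

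Apoc3, the inhibitor of lipoprotein lipase that is encoded next to Apoa1, was far from its adult liver level in iHep. It read 6.58, 5.80 and 6.05 in iHep, 14.19 and 14.26 in adult liver, and 7.14 and 5.25 in fetal liver. The iHep and fetal liver arrays overlapped, and all lay below the adult liver arrays. The log2 fold change was −8.08 ± 0.46 over adult liver (adjusted p = 7.49e-07) and −0.05 ± 0.46 over fetal liver (adjusted p = 0.949).

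Apoa4, a protein of chylomicrons and of intestinal lipid secretion, read 7.24, 6.39 and 6.60 in iHep, 12.07 and 11.80 in adult liver and 6.59 and 7.06 in fetal liver. Apoa5, which promotes the hydrolysis of triglyceride-rich particles, read 6.87, 6.56 and 7.13 in iHep, 13.89 and 14.33 in adult liver, and 7.67 and 7.19 in fetal liver. For both genes the adult liver arrays stood apart from all others. The log2 fold changes of iHep over adult liver were −5.19 ± 0.29 for Apoa4 and −7.26 ± 0.26 for Apoa5 (adjusted p = 5.74e-07 and 4.78e-08), whereas over fetal liver they were −0.08 and −0.58 and did not pass (adjusted p = 0.864 and 0.118). For Apoa5 the iHep lines nevertheless lay below both fetal liver arrays, and its difference passed with all 25 arrays in 1 model (adjusted p = 0.0206). Of the 4 neighbours on chromosome 9, Apoa1 was the one without a call between iHep and adult liver.

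**Figure D2:**
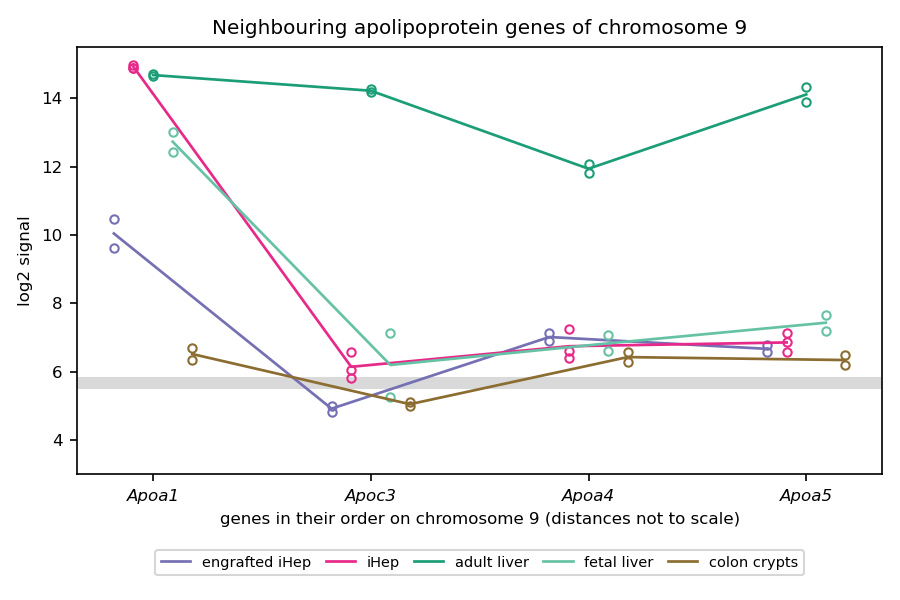
Log2 signal (y axis) of the 4 neighbouring genes of chromosome 9 in their genomic order (x axis); circles are arrays, lines join group means and the grey band spans the 40th percentiles of the arrays. iHep lies with adult liver at Apoa1 and far below it at Apoc3, Apoa4 and Apoa5, while adult liver lies at 11.80 or higher at all 4 genes.

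Apoa2, the second protein of high-density lipoprotein, did not follow Apoa1. It read 6.99, 6.80 and 6.87 in iHep, 14.68 on both arrays of adult liver, 12.48 and 11.80 in fetal liver and 7.86 and 7.75 in colon. The iHep lines lay below both livers and also below colon. The log2 fold changes of iHep were −7.79 ± 0.28 over adult liver, −5.26 ± 0.28 over fetal liver and −0.92 ± 0.28 over colon (adjusted p = 5.64e-08, 1.23e-06 and 0.0205). The last call ended without iHep replicate 2 (−0.88), without colon replicate 1 (−0.87) or without colon replicate 2 (−0.97).

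Apoe, the ligand by which receptors take up remnant particles, read 7.17, 8.20 and 8.22 in iHep, 14.32 and 14.42 in adult liver and 11.20 and 11.28 in fetal liver. Apoc1, a small protein that slows this uptake and lies beside Apoe, read 5.39, 5.87 and 6.06 in iHep, 13.94 and 14.23 in adult liver and 10.37 and 10.38 in fetal liver. The groups did not overlap for either gene, and 1 of the 3 iHep arrays lay below the floor for Apoc1. Over adult liver the log2 fold changes of iHep were −6.50 ± 0.65 for Apoe and −8.30 ± 0.30 for Apoc1, and over fetal liver −3.37 ± 0.65 and −4.60 ± 0.30, all 4 past the test. Macrophage and leukocyte markers averaged 5.96, 5.67 and 5.82 in iHep, 9.68 and 8.19 in adult liver and 9.31 and 9.84 in fetal liver, and their part in the Apoe and Apoc1 differences was not tested. Where a group lies at the floor, the probe set's background sets the size of the fold change.

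Apoh, a phospholipid-binding plasma glycoprotein also called beta-2-glycoprotein I, read 6.40, 6.50 and 6.79 in iHep, 14.29 and 14.26 in adult liver and 11.76 and 11.65 in fetal liver. Apom, the carrier of sphingosine 1-phosphate on high-density lipoprotein, read 6.03, 6.02 and 5.54 in iHep, 14.02 and 13.71 in adult liver and 10.60 and 10.21 in fetal liver. iHep lay below both livers at each gene, and the livers did not overlap. The log2 fold changes of iHep over fetal liver were −5.14 ± 0.29 for Apoh and −4.54 ± 0.90 for Apom (adjusted p = 1.64e-06 and 0.00342). These values are of the brighter probe set of each gene. The dimmer one of Apoh averaged 5.86 in iHep, 6.17 in fetal liver and 7.69 in adult liver. There iHep and fetal liver, both near the floor, did not differ beyond their spread. The dimmer one of Apom averaged 5.89, 9.14 and 12.09 in the same groups.

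Apob, the structural protein of very-low-density particles, was measured at an intermediate level. Its brighter probe set read 9.31, 9.05 and 10.32 in iHep, 14.21 and 14.22 in adult liver, and 9.98 and 10.09 in fetal liver. The iHep lines spanned the fetal liver arrays and lay below the adult ones. The log2 fold change of iHep was −4.65 ± 0.34 over adult liver (adjusted p = 3.14e-06) and −0.47 ± 0.34 over fetal liver (adjusted p = 0.338). The second comparison passed the test, at −0.85, without iHep replicate 3.

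All 10 genes passed the filter on low signals among the iHep, liver and colon arrays. Of them, 9 were lower and 0 higher in iHep than in adult liver, where 55.9% of all genes tested were called, 37.8% higher and 18.2% lower. The median log2 fold change was −7.49 over the 10 genes and 0.26 over all genes tested. Against fetal liver, 5 were lower and 1 higher, where 33% of all genes were called, 13.1% lower and 19.9% higher. Adult liver was higher than fetal liver at 10 of 10 genes, where 49.3% of all genes were called, 18.2% higher and 31.1% lower, from 1.95 ± 0.31 for Apoa1 to 8.03 ± 0.51 for Apoc3. Their median was 3.58, against −0.16 over all genes. Without any 1 of the 4 liver arrays the call of Apom between adult and fetal liver ended, at 3.26 to 3.65. Its test uses a spread shared by all groups of the model, among them engrafted iHep, whose 2 Apom values lay far apart. Within the livers the gap of the Apom means, 3.46, was beyond the sum of their SDs, 0.49. The erythroid markers that were higher in fetal liver move with this comparison, and their part in it was not tested. These comparisons share the iHep or adult liver arrays, so they are not independent of each other.

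**Figure D3:**
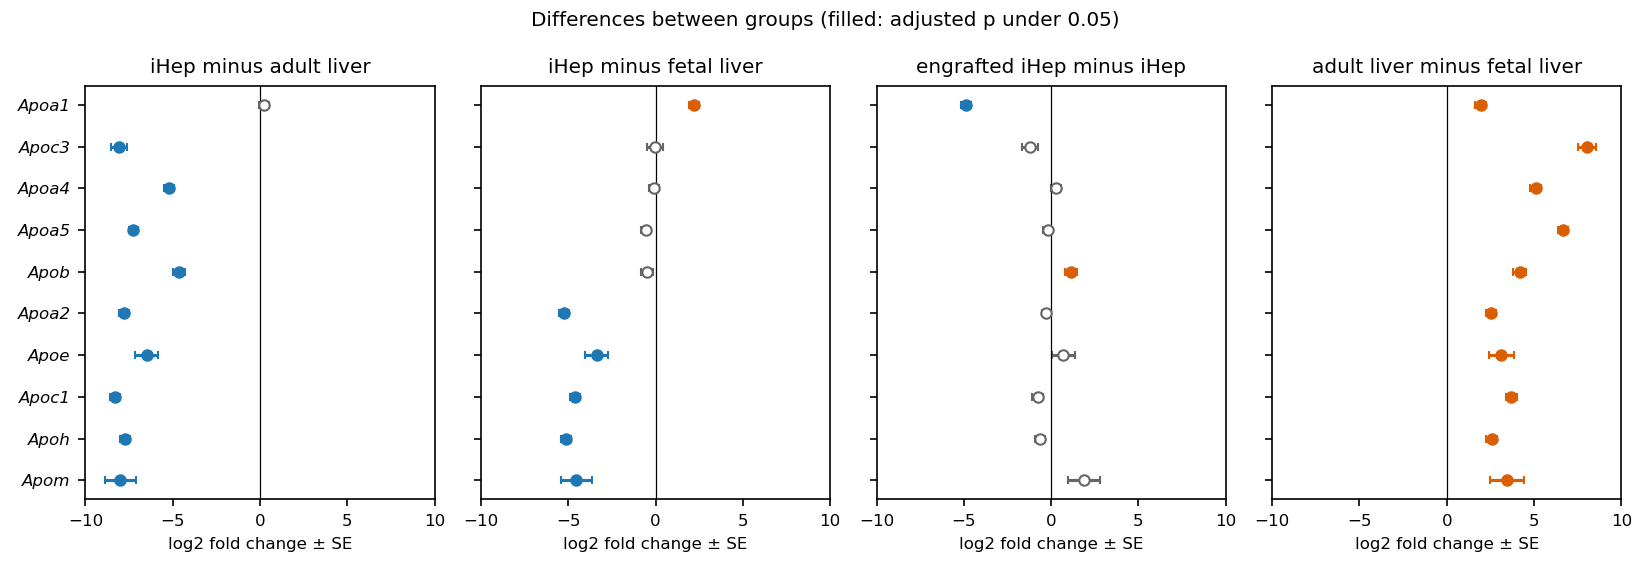
Log2 fold change ± SE (x axis) of each gene (y axis) in 4 comparisons; filled points passed the test (orange higher, blue lower) and open grey points did not. In iHep minus adult liver, Apoa1 lies near 0 and the other 9 genes to the left of it, and in adult liver minus fetal liver all 10 genes lie to the right of 0.

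Other genes of lipoprotein metabolism were compared between iHep and adult liver, where 37.8% of all genes were higher and 18.2% lower. Of 10 genes of particle assembly, 9 were lower and 1 higher, with a median of −2.36, among them Tm6sf2, which helps to load lipid onto Apob particles, at −4.57 ± 0.33, and Mttp, the microsomal triglyceride transfer protein, at −4.31 ± 0.30. Of 9 genes of plasma lipases and remodelling, 6 were lower and 1 higher, including Pon1, an esterase carried on high-density lipoprotein, at −9.07 ± 0.25, and Lcat, which esterifies cholesterol on those particles, at −5.69 ± 0.24. Of 8 receptor genes tested, 3 were lower and 4 higher, with Lrp1, a remnant receptor, at −3.63 ± 0.29 and Lrp8, a receptor of the Apoe family of ligands, at 2.85 ± 0.24. Of 6 sterol transporter genes, 4 were lower and 1 higher, including Abcg5, which exports plant sterols and cholesterol into bile, at −5.82 ± 0.62. Among 19 regulators, 13 were lower and 2 higher, including Mlxipl, the carbohydrate-responsive factor, at −7.02 ± 0.43, Nr1h4, the bile acid receptor, at −6.07 ± 0.22, and Ppara, the fatty acid receptor, at −5.52 ± 0.37. Of 10 further apolipoprotein genes, 7 were lower and 0 higher, with Apon at −7.97 ± 0.32 and Apof at −7.30 ± 1.05, while Apoc2, the activator of lipoprotein lipase, stood at −1.54 and did not pass (adjusted p = 0.0682).

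Against fetal liver, where 19.9% of all genes were higher and 13.1% lower, 4 genes of particle assembly were higher and 1 lower, 1 lipase gene was higher and 3 lower, and 4 receptor genes were higher and 0 lower. Of the sterol transporters 1 was higher and 0 lower, of the regulators 3 were higher and 3 lower, and of the further apolipoprotein genes 1 was higher and 2 lower. Apobec1, the enzyme that edits the Apob message, was at 1.42 ± 0.24 and Angptl4, an inhibitor of lipoprotein lipase, at 4.04 ± 0.73 in iHep over fetal liver. Clu, the gene of clusterin, also called apolipoprotein J, was at 3.43 ± 0.34, and Saa4 at −2.14 ± 0.36. In adult over fetal liver, 10 of 10 genes of particle assembly, 7 of 9 lipase genes and 15 of 19 regulators were higher, with medians of 2.73, 2.45 and 2.27. In that comparison 18.2% of all genes were called higher and 31.1% lower.

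After 12 days in the colon, iHep carried less Apoa1 and more Apob than in culture. The colon epithelium markers moved with this comparison, at 11.72 and 10.95 on average in engrafted iHep against 6.89, 6.62 and 7.01 in cultured iHep, and their part in it was not tested. Apoa1 read 10.48 and 9.61 in engrafted iHep, against 14.97, 14.90 and 14.89 in cultured iHep, and 6.35 and 6.68 in colon crypts. The engrafted arrays lay below every cultured array and above both colon arrays. The log2 fold change was −4.88 ± 0.28 over cultured iHep (adjusted p = 1.92e-06) and 3.53 ± 0.31 over colon (adjusted p = 0.000181). Leaving out any 1 array of these groups left both Apoa1 calls in place.

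Apob in its brighter probe set read 10.89 and 10.47 in engrafted iHep, against 9.31, 9.05 and 10.32 in cultured iHep and 10.37 and 10.38 in colon. Both engrafted arrays lay above the cultured lines, by a log2 fold change of 1.12 ± 0.34 (adjusted p = 0.0215), and this call ended without engrafted replicate 1 (0.91), iHep replicate 1 (0.99) or iHep replicate 2 (0.86). The other probe set of Apob read 11.08 and 11.31 in engrafted iHep, 5.97, 6.27 and 6.67 in cultured iHep, 11.69 and 10.98 in adult liver, 6.94 and 6.33 in fetal liver and 10.73 and 10.65 in colon. In that probe set the engrafted arrays reached the adult liver range, whereas the cultured and fetal liver arrays were near the floor. With each probe set tested as its own feature, its log2 fold change was 4.89 ± 0.30 in engrafted over cultured iHep (adjusted p = 2.03e-06), −0.14 ± 0.33 in engrafted iHep over adult liver (adjusted p = 0.731) and −4.39 ± 0.30 in cultured iHep over colon (adjusted p = 2.56e-06). Under that setting 48.1%, 62% and 54.2% of all probe sets were called in the 3 comparisons. The brighter probe set exceeded the other by 3.26 on average in cultured iHep, 2.88 in adult liver and 3.40 in fetal liver, and fell short of it in engrafted iHep (−0.51) and colon (−0.32). What part of the Apob transcript each probe set reads is not given in the sources used here.

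Apom also depended on the probe set, and there on 1 array. Its brighter probe set read 9.82 and 5.67 in engrafted iHep, against 6.03, 6.02 and 5.54 in cultured iHep and 6.04 and 5.90 in colon. Engrafted replicate 1 was far above the others and replicate 2 was not. Its dimmer probe set read 5.42 and 4.75 in the same engrafted arrays, against 5.95, 5.92 and 5.80 in cultured iHep. The brighter one gave a log2 fold change of 1.89 ± 0.90 in engrafted over cultured iHep (adjusted p = 0.11) and of 3.96 without engrafted replicate 2. The dimmer one gave −0.80 ± 0.30, which passed as lower (adjusted p = 0.0488 with each probe set tested as its own feature). Its engrafted values lay below the 40th percentiles of their arrays (5.67 and 5.61) and its cultured values close above theirs, so that call concerns signals at the floor.

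**Figure D4:**
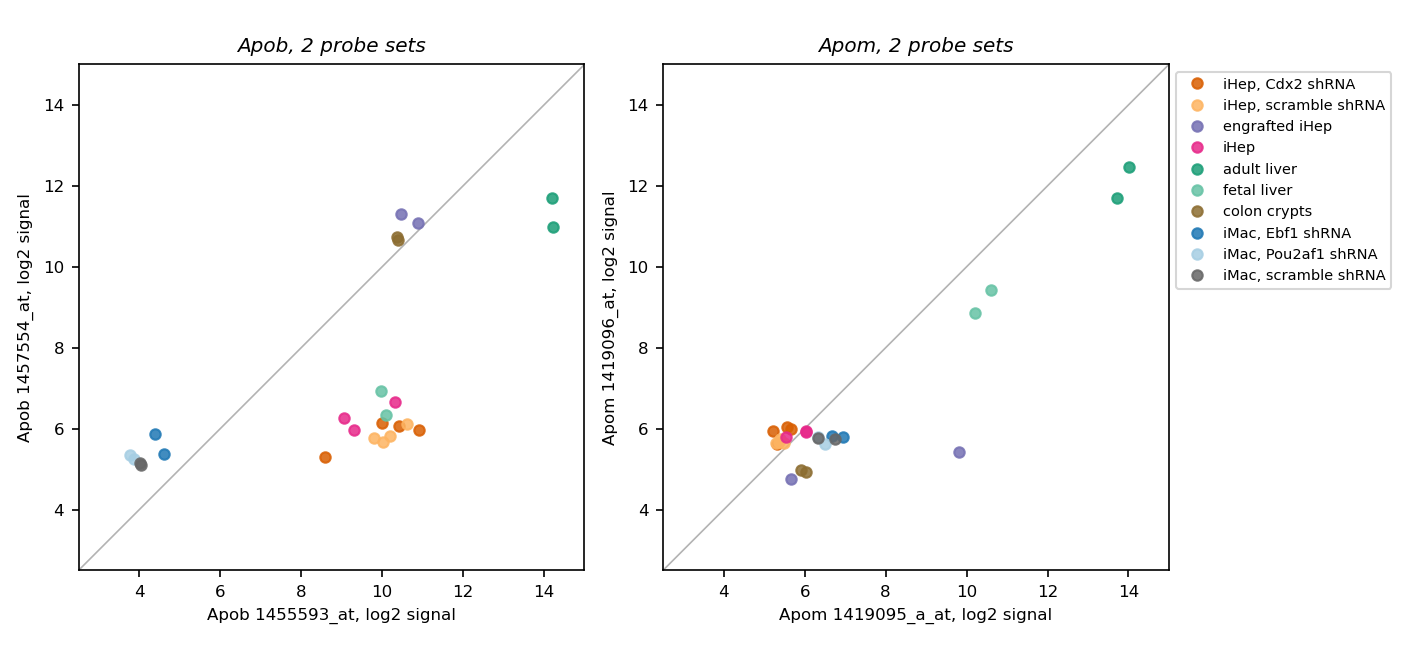
Log2 signal of the brighter (x axis) and the dimmer (y axis) probe set of Apob (left) and of Apom (right) on each of the 25 arrays, coloured by group, with the line of equal values. For Apob, engrafted iHep and colon lie near the line and cultured iHep and fetal liver far below it, and for Apom 1 engrafted array lies apart from the others.

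Apoe read 7.20 and 9.92 in engrafted iHep, against 7.17, 8.20 and 8.22 in cultured iHep, so that replicate 2 stood above the cultured lines and replicate 1 among them. The log2 fold change was 0.70 ± 0.65 (adjusted p = 0.398), and 2.06 without engrafted replicate 1, which passed. On engrafted replicates 1 and 2 the macrophage and leukocyte markers averaged 5.50 and 7.58, the Kupffer cell markers 5.01 and 5.97 and the fibroblast markers 6.09 and 8.69, and their part in the Apoe values was not tested. Apoc3 read 5.00 and 4.83 in engrafted iHep, against 6.58, 5.80 and 6.05 in cultured iHep, all of the engrafted values below the floor (−1.23 ± 0.46, adjusted p = 0.0523). Apoc1 and Apoh stood at −0.78 ± 0.30 and −0.62 ± 0.29 in engrafted over cultured iHep and did not pass (adjusted p = 0.054 and 0.105), whereas without engrafted replicate 1 both did, at −1.20 and −1.09, and Apoc1 also without iHep replicate 1 (−0.97).

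In all, 1 of the 10 genes was higher and 1 lower in engrafted than in cultured iHep, where 48% of all genes were called, 18.2% higher and 29.7% lower. Against colon, Apoa1 was higher and Apoa2 lower (−1.19 ± 0.31, adjusted p = 0.0292), where 16.8% of all genes were called, 7.1% higher and 9.66% lower. Apoa2 read 7.03 and 6.20 in engrafted iHep and 7.86 and 7.75 in colon, and its call ended at −0.77 without engrafted replicate 2 and without either colon array (−1.13 and −1.24). All 10 genes, each in its brightest probe set, were lower in engrafted iHep than in adult liver, from −3.53 ± 0.37 for Apob to −9.30 ± 0.51 for Apoc3, where 59.8% of all genes were called, 35.2% higher and 24.7% lower. For Apob this held in the brighter probe set only, since the other averaged 11.19 in engrafted iHep and 11.33 in adult liver, within their spread. In cultured iHep over colon, Apoa1 (8.41 ± 0.28) and Apoh (0.90 ± 0.29, adjusted p = 0.025) were higher and Apoa2 was lower, where 53.5% of all genes were called, 32.3% higher and 21.3% lower. The Apoh call ended without iHep replicate 3 (0.79) or colon replicate 2 (0.65). Apob, at −0.81 ± 0.34 over colon (adjusted p = 0.0684), passed without iHep replicate 3 (−1.19). In adult liver over colon, where 60.7% of all genes were called, 24.8% higher and 35.9% lower, 10 of 10 genes were higher, by 3.84 ± 0.37 for Apob to 9.17 ± 0.51 for Apoc3.

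In engrafted over cultured iHep 18.2% of all genes were called higher and 29.7% lower. Among the regulators, 11 of 19 were higher and 2 lower, with a median of 1.28 against −0.22 over all genes. Foxa1, a transgene of the iHep lines, was at 4.50 ± 0.55, Nr1h4 at 3.95 ± 0.22 and Mlxipl at 3.32 ± 0.43. Foxa1 read 9.26 and 8.38 in engrafted iHep, 4.30, 4.14 and 4.52 in cultured iHep and 10.34 and 10.13 in colon, and whether its probe set reads the retroviral Foxa1 was not tested. Of 9 lipase genes, 2 were higher and 3 lower, near the shares over all genes, with Angptl4 at −5.59 ± 0.73 and Lpl, the gene of lipoprotein lipase, at −4.68 ± 0.60. Abca1, the exporter that loads cholesterol onto Apoa1, was at −4.25 ± 0.32. Saa1, an acute phase apolipoprotein, read 12.22 and 11.30 in engrafted iHep, 4.39, 4.55 and 4.74 in cultured iHep and 12.93 and 12.96 in colon (7.20 ± 0.27 over cultured iHep, adjusted p = 1.52e-07). Its signal and that of Saa2 (1.92 ± 0.23) may share transcripts, since the 2 genes are near-identical copies.

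Cdx2 shRNA in iHep, which lowered Cdx2 to 7.96 ± 0.12 against 9.12 ± 0.21 with scramble shRNA (SD, n = 4 each), changed none of the 10 genes in limma's test, while 2.21% of all genes were called, 0.535% higher and 1.68% lower. At an unadjusted p under 0.05 there were 3 of 10, against 15.7% of all genes. Apoa1 read 14.58, 14.70, 14.93 and 14.96 with Cdx2 shRNA and 14.91 on all 4 scramble arrays, so replicates 1 and 2 were lower and replicates 3 and 4 slightly higher. Apob read 8.59, 10.91, 10.41 and 10.00 with Cdx2 shRNA and 10.02, 10.62, 10.20 and 9.81 with scramble shRNA, and only replicate 1 lay below the scramble range. The log2 fold changes were −0.12 ± 0.10 for Apoa1 and −0.19 ± 0.44 for Apob.

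Same-numbered arrays of these 2 groups deviated together. So did differently numbered ones among replicates 1 and 2 and among 3 and 4, so the values do not single out 4 pairs. With the replicate number as a block, 2 genes passed, where 5.57% of all genes did, 1.77% higher and 3.79% lower. Apoa2 read 6.90, 6.50, 6.51 and 6.70 with Cdx2 shRNA and 7.50, 7.01, 6.93 and 6.95 with scramble shRNA. Each Cdx2 shRNA array was lower than the scramble array of the same number (−0.45 ± 0.08 in the blocked fit, adjusted p = 0.0373). Apoc1 read 6.90, 6.83, 7.42 and 7.35 with Cdx2 shRNA and 6.18, 6.59, 6.94 and 6.87 with scramble shRNA. Here each was higher than the scramble array of the same number (0.48 ± 0.09 in the blocked fit, adjusted p = 0.0437). Without the block the adjusted p was 0.182 for Apoa2 and 0.282 for Apoc1. Of 16 regulators tested without the block, Cdx2, the target of the shRNA itself, was lower, and so was Hnf4a (−0.89 ± 0.18, adjusted p = 0.044). Hnf4a is a transgene of the iHep lines, and whether its probe set reads the retroviral copy was not tested. Without the block, the lists of particle assembly, lipases, receptors and sterol transporters had 0 genes called. Over all genes 0.535% were higher and 1.68% lower in that fit. Hnf4a read 9.12, 9.07, 9.52 and 9.67 with Cdx2 shRNA and 10.43, 10.48, 9.82 and 10.22 with scramble shRNA.

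In iHep with scramble shRNA Apoe read 9.24, 9.70, 10.37 and 10.09, against 7.17, 8.20 and 8.22 in the untransduced lines, with no overlap. Fibroblast markers moved with this comparison (7.02, 7.02, 7.29 and 7.26, against 5.18, 6.57 and 6.92), and untransduced replicate 1 was lowest in hepatocyte markers too (6.79 to 7.13, against 4.96, 6.51 and 7.32). The part of either in the Apoe values was not tested. The log2 fold change of 1.98 ± 0.45 did not pass the test over all genes (adjusted p = 0.0521), where 0.531% were called, 0.435% higher and 0.096% lower. It passed without scramble replicate 1 (2.19) or iHep replicate 3 (2.16). Apoc1 read 6.18, 6.59, 6.94 and 6.87 with scramble shRNA and 5.39, 5.87 and 6.06 in the untransduced lines (0.87 ± 0.22, adjusted p = 0.0812), and passed without the same arrays (1.02 and 1.01). None of the 10 genes passed limma's test in this comparison, and 3 had an unadjusted p under 0.05, as did 13.1% of all genes. The fit used all 25 arrays, and the 2 groups belong to different experiments, so treatment and experiment cannot be told apart.

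In induced macrophages Apoc1 differed most among the 7 genes tested when Ebf1 shRNA was set against scramble shRNA or the labelled Pou2af1 arrays. Apoc1 read 6.89 and 7.03 with Ebf1 shRNA, 8.69 and 8.66 in the arrays labelled Pou2af1 shRNA and 8.18 and 8.31 with scramble shRNA. The 3 groups did not overlap, with Ebf1 shRNA lowest. Apoc1 fell by 1.29 ± 0.11 on the log2 scale with Ebf1 shRNA (adjusted p = 0.00143) and differed by −1.71 ± 0.11 between the Ebf1 and the labelled Pou2af1 arrays (adjusted p = 0.000368), while the labelled Pou2af1 arrays stood 0.43 ± 0.11 above scramble, not past the test (adjusted p = 0.051). Both calls held without any 1 array.

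Apoe read 7.35 and 7.29 with Ebf1 shRNA, 7.59 and 7.47 in the labelled Pou2af1 arrays and 7.88 and 7.78 with scramble shRNA. Each group lay apart from the others, in that order. With Ebf1 shRNA the log2 fold change was −0.51 ± 0.10 (adjusted p = 0.0267), and without any 1 of the 4 arrays this call ended, at −0.46 to −0.56. In the labelled Pou2af1 arrays it was −0.31 ± 0.10 (adjusted p = 0.117).

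Apoa2, which is not known as a macrophage product, read 6.89 and 6.83 with Ebf1 shRNA, 7.05 and 7.08 in the labelled Pou2af1 arrays and 6.45 and 6.48 with scramble shRNA. Both groups lay above scramble, by 0.39 ± 0.09 and 0.60 ± 0.09 (adjusted p = 0.0416 and 0.0142), and each call ended without any 1 array of its comparison, at 0.36 to 0.42 and 0.58 to 0.61. Both comparisons use the same 2 scramble arrays. The Ebf1 call also ended under several other settings given further below. In the iHep groups, cultured and engrafted, the same probe set averaged between 6.62 and 7.10, so these differences lie in a range of low signals. Whether the iMac signals exceed the background of the probe set was not tested. With Ebf1 shRNA 1 of the 7 genes tested was higher and 2 were lower, where 14.4% of all genes were called, 6.21% higher and 8.16% lower. In the labelled Pou2af1 arrays 1 was higher and 0 were lower, where 12% were called, 6.8% higher and 5.15% lower. With Ebf1 shRNA against the labelled Pou2af1 arrays 1 was lower, where 16.4% were called, 7.1% higher and 9.31% lower. Apob, Apoc3 and Apoh were too low in iMac to be tested.

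The neighbours of Apoe and Apoc1 differed as well. Apoc2 read 12.23 and 12.22 with Ebf1 shRNA, 13.63 and 13.65 in the labelled Pou2af1 arrays and 12.52 and 12.64 with scramble shRNA, and Apoc4 6.25 and 6.13, 7.26 and 7.07, and 6.50 and 6.62 in the same groups. For both, Ebf1 shRNA lay below scramble and the labelled Pou2af1 arrays above it. Apoc2 differed by −1.42 ± 0.10 between the Ebf1 and the labelled Pou2af1 arrays (adjusted p = 0.000531), whereas Ebf1 shRNA against scramble gave −0.35 ± 0.10 for Apoc2 and −0.37 ± 0.12 for Apoc4, neither past the test (adjusted p = 0.0624 and 0.0855). The labelled Pou2af1 arrays stood above scramble by 1.06 ± 0.10 for Apoc2 and 0.60 ± 0.12 for Apoc4, both past it. These 2 neighbours are given here because of their place beside Apoc1 and were chosen after their values were seen. Of 8 further apolipoprotein genes tested, 5 were higher and 1 lower in the labelled Pou2af1 arrays than with scramble shRNA, where 6.8% of all genes were higher and 5.15% lower. With Ebf1 shRNA 1 was higher and 0 lower, where 6.21% of all genes were higher and 8.16% lower. Apod, a lipocalin of lipoprotein particles, was at 2.37 ± 0.19 and Saa3, an acute phase protein of macrophages, at −1.58 ± 0.14 in the labelled Pou2af1 arrays, and Saa3 was at 0.64 ± 0.14 with Ebf1 shRNA. Apobec1 was at −0.51 ± 0.10 with Ebf1 shRNA and at 0.66 ± 0.10 in the labelled Pou2af1 arrays, and Dgat2, an enzyme of triglyceride synthesis, at −1.66 ± 0.12 in those arrays. The macrophage and leukocyte markers averaged 10.45 and 10.48 with Ebf1 shRNA, 10.81 and 10.75 in the labelled Pou2af1 arrays and 10.08 and 9.92 with scramble shRNA, and the B cell markers 8.89 and 9.13, 10.43 and 10.34, and 9.43 and 9.57. Their part in the Apoe and Apoc1 values was not tested.

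**Figure D5:**
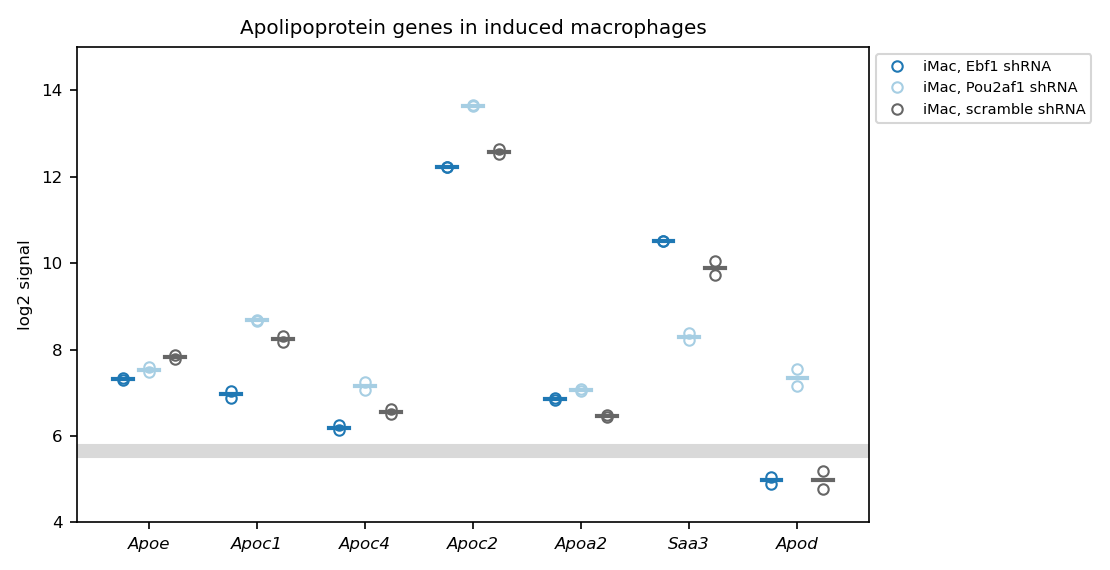
Log2 signal (y axis) of 7 apolipoprotein genes (x axis) in induced macrophages; circles are arrays, bars are group means and the grey band spans the 40th percentiles of the 25 arrays. Within Apoc1, Apoc4 and Apoc2 the order from low to high is Ebf1, scramble and labelled Pou2af1 arrays.

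Across all 25 arrays the genes fell together to unequal degrees, and what the arrays of a group share is counted more than once in these correlations. Pearson's r was 0.97 between Apoa2 and Apoh, 0.97 between Apoa4 and Apoa5 and 0.92 between Apoa2 and Apom. Apoa1 had r of 0.08 with Apom and 0.69 with Apob, its closest partner. Among 14480 other genes, those most like Apoa1 were Cdh2, the gene of N-cadherin (r = 0.985), Pid1 (0.974) and Serpina1b (0.972). Those most like Apoa5 were Akr1c6 (0.994), G6pc, the glucose-6-phosphatase of gluconeogenesis (0.991), and Amdhd1 (0.990), and those most like Apoh were the complement and clotting genes Hc (0.984), Fga (0.983) and F2 (0.982). The genes most like Apob were Cebpa, a liver and myeloid transcription factor (0.975), Egfr (0.973) and Ahr (0.964), and those most like Apoe were Agt (0.953), Fgg (0.940) and Serping1 (0.939). For Apoc1 the highest r was 0.937, that of Slc6a13. Closest to Apoa2 were Plg, the gene of plasminogen (0.981), and the serpin genes Serpinc1 (0.980) and Serpina6 (0.979). Agxt (0.985) was closest to Apoa4, Cyp2b13 (0.975) to Apoc3 and Serpinc1 (0.959) to Apom.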

How the data were processed

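RNA (100 ng per sample) was amplified with a Nugen kit and hybridised to Affymetrix mouse arrays, per the labels' protocols. The authors deposited 1 table of log2 signals per probe set for 25 arrays, made with RMA per the submitters' processing notes. The RMA version is not given in the sources used here. RMA equalises the distribution of signals between arrays, so levels are relative to the rest of each array.

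Probe sets with 1 symbol in the platform annotation (34958 of 45101) were used, and 932 with several symbols and 9160 unnamed ones were left out. Each gene was represented by the brightest of its probe sets, on average over the 25 arrays. Genes above the 40th percentile of their array in at least 2 arrays of a model were tested with limma 3.58.1 (R 4.3.3; lmFit and eBayes, 2-sided, Benjamini-Hochberg adjusted p under 0.05), in 13 comparisons from 4 models. These held the 6 iMac arrays (3 residual degrees of freedom), the 11 arrays of untreated and engrafted iHep, livers and colon (6), the 8 arrays of the Cdx2 experiment (6), and all 25 (15). The groups of a model share 1 estimate of each gene's spread. A gene that varies within 1 group therefore has a larger SE in every comparison of that model. The test was tried on simulated data first. Figures were drawn with matplotlib 3.10.9. The number of arrays limits the precision, and 0 pairs of columns were identical.

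The 10 genes and the gene lists were chosen with earlier results of these data known. All members were named. From each list up to 3 called genes with the largest change and 1 uncalled gene per comparison could be named, and for each member the 3 genes with the highest Pearson r over the arrays. Same-numbered arrays of the Cdx2 experiment correlated in their deviations from the group means (r = 0.457, 0.250, 0.504 and 0.381). The labels do not state a pairing, and the main fit used none. The replicate number was fitted as a block only as an alternative. Differently numbered arrays also correlated among replicates 1 and 2 (r = 0.138 and 0.347) and among 3 and 4 (0.138 and 0.290). The remaining r lay between −0.483 and −0.0902. The number therefore does not single out pairs. In the other comparisons r of same-numbered arrays lay between −0.138 and 0.172.

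Alternatives covered the filter, the choice of probe set, the scaling, the variance model, the replicate block and leaving out each array.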

Additional observations from a re-analysis of the deposited data

Results flagged for a closer look

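Among 34 combinations of an apolipoprotein probe set and a group of 4 arrays, 2 had an array whose gap to its nearest neighbour, as a share of the whole range, exceeded Dixon's critical value for 4 values. Chance alone flags about 1 in 20 groups. The single Apoa2 probe set read 7.50 in iHep with scramble shRNA replicate 1, against 7.01 for the next array of that group (ratio 0.863). The dimmer Apoh probe set read 5.89 in iHep with Cdx2 shRNA replicate 3, against 5.69 for the next array (ratio 0.932), which is close to the floor for low signals.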

How the results depend on the processing

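Over 121 fold changes of the 10 genes and 1855 alternative values, 1737 kept direction and call, 36 gained and 43 lost the call, and 2 reversed. Another 37 changed sign without being called in either setting. Both reversals were of Apom with probe sets shared between transcripts left out, at 0.95 in iHep over colon and −0.80 in engrafted over cultured iHep. The probe set then used lay below the floor in engrafted iHep and colon, at 5.09 and 4.95 on average. That setting removes Apoa1, Apoa2 and Apoe altogether.

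For the 7 genes tested in iMac, the 1 gene higher with Ebf1 shRNA became 0 without a filter, with the 60th percentile filter, without shared probe sets, with every probe set its own feature, with a mean-variance trend and robust fit, with a change of at least 1, with all 25 arrays in 1 model and with the replicate block, and 0 to 0 without single arrays. The 2 lower became 1 without a filter, without shared probe sets, at a change of at least 1 and with all 25 arrays, and 1 to 1 without single arrays. The 1 gene higher in the labelled Pou2af1 arrays became 2 with averaged probe sets, 0 without shared probe sets, at a change of at least 1 and with all 25 arrays, and 0 to 0 without single arrays. Without a filter 1 gene outside these 7 was higher with Ebf1 than in the labelled Pou2af1 arrays, against 0. The genes outside the 7, Apob, Apoc3 and Apoh, had group means below the floor in both groups.

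Without shared probe sets, iHep over fetal liver had 0 higher and 3 lower (main 1 and 5; 6 lower with all 25 arrays, which adds Apoa5, and with the replicate block, which adds Apob), and engrafted iHep over colon 0 and 0 (main 1 and 1). In iHep over colon, the 2 higher became 3 with repeated quantile normalization and with all 25 arrays (Apoa5 added) and with centred arrays (Apoc3 added), 1 at a change of at least 1 and with the replicate block, and 1 to 2 without single arrays. The 1 lower there became 2 with averaged probe sets and with the block, 0 without shared probe sets, with quantile normalization repeated and at a change of at least 1, and 0 to 2 without single arrays. In engrafted over cultured iHep, the 1 higher became 2 with all 25 arrays and 0 to 2 without single arrays, and the 1 lower became 3 with averaged probe sets, with centred arrays and with all 25 arrays, 2 with repeated quantile normalization, and 1 to 3 without single arrays. In engrafted iHep over colon the 1 higher was 1 to 2 without single arrays and the 1 lower 0 to 1, and 0 with repeated quantile normalization. The replicate block gave 1 higher and 1 lower with Cdx2 shRNA against 0 and 0. It called 760 of 13651 genes, against 302 without it. In scramble iHep over untransduced iHep, 1 gene was higher with the 60th percentile filter, with centred arrays, with the trend and robust fit and with the block, and 0 to 2 without single arrays, against 0. The labels state no pairing in any comparison, and outside that of Cdx2 shRNA same-numbered arrays share only a number. Without shared probe sets the calls of Apoa1, Apoa2 and Apoe ended because these genes were absent. With the 60th percentile filter that of Apoa2 in iMac ended because it was no longer tested. Which cause lay behind the other changes was not tested.

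The 9 genes lower in iHep and the 10 lower in engrafted iHep than in adult liver, each in its brightest probe set, kept these counts without any single array. Centring moved the median of all genes by 0.16 in iHep over adult liver, 0.13 in iHep over colon, −0.11 in engrafted over cultured iHep and −0.11 in adult over fetal liver, and repeated quantile normalization by −0.12, −0.19 and 0.28 in iHep over adult liver, engrafted iHep over adult liver and adult liver over colon. With that repeat 51.2% of all calls were higher in adult liver over colon, against 40.9%, and 71.7% in scramble over untransduced iHep, against 81.9%. The number of arrays per group, 2 to 4, limits the precision.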

Other observations

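Apoc2, the activator of lipoprotein lipase, varied among the iHep lines and reached the range of adult liver in 1 of the 3 untransduced lines. It read 10.42, 12.23, 13.34 and 13.29 in iHep with Cdx2 shRNA, 12.01, 12.59, 13.17 and 13.06 in iHep with scramble shRNA, 9.88 and 8.87 in engrafted iHep, 10.40, 11.66 and 12.60 in untransduced iHep, 13.75 and 12.44 in adult liver, 10.44 ± 0.79 in fetal liver (SD, n = 2) and 8.64 and 8.17 in colon. The 3 untransduced lines spread over more than 2 units, and the engrafted arrays lay below all of them (−2.18 ± 0.65, adjusted p = 0.0202). Apof, which regulates cholesteryl ester transfer, spread further, at 3.84, 6.23 and 8.43 in the untransduced lines, against 13.46 ± 0.06 in adult liver (SD, n = 2). The lines that were higher for Apof were also higher for Alb.

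The dimmer Apoh probe set read 3.26 on both engrafted arrays, against 6.07, 5.56 and 5.94 in cultured iHep, 7.62 and 7.77 in adult liver, 6.20 and 6.13 in fetal liver and 2.82 and 3.03 in colon. It gave a larger difference than the brighter Apoh probe set between engrafted and cultured iHep, at −2.59 ± 0.21 against −0.62 ± 0.29 on the log2 scale, and of these only the difference of the dimmer probe set passed the test, with each probe set as its own feature. Its engrafted values lay far below the 40th percentiles of their arrays (5.67 and 5.61) and its cultured values near the floor. The difference thus lies in signals at or below the floor, where background sets its size.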
